A study of Mus musculus with 12 samples.

Results

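Aspartic proteases cut proteins with a pair of aspartate residues. The pepsin family is the branch that includes the digestive enzymes of the stomach, the lysosomal cathepsin D, the endosomal cathepsin E and the membrane-bound β-secretases. In embryonic mouse lung 7 genes of this family were followed, Cym, Ctse, Pgc, Napsa, Ctsd, Bace1 and Bace2, and all 7 were among the 22180 genes measured. They were selected by symbol, each through the probe set annotated with that symbol alone that had the highest mean over all 12 arrays. The first 4 are paralogs with restricted expression, and the last 3 were grouped as housekeeping members for comparison. The family was put together with earlier results of these data in view, in which Cym was already known to be low in the mutants, so the values of Cym against control are given as a description with no test.

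Whole lungs of mouse embryos at stage E14.5 were profiled on single-channel Affymetrix arrays, with 4 specimens in each of 3 genotypes. All 12 specimens carried a Cre recombinase allele at the Sonic hedgehog locus, which targets the lung epithelium. The controls were Shh+/Cre, the Yy1 mutants were Shh+/Cre with Yy1flox/flox, and the Dicer mutants were Shh+/Cre with Dicerflox/flox. Yy1 is a zinc finger transcription factor and Dicer cuts precursors into mature microRNAs, and each floxed gene is lost only where Cre is active. The RNA came from the whole organ, so it also holds mesenchyme, vessels and blood that this Cre does not target, and in bulk RNA fewer cells of a type and less RNA per cell cannot be told apart. The labels give no litter, sex or batch and do not say whether specimens were separate embryos, so the p-values measure only the spread between specimens.

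Most pepsin-family enzymes are made as inactive precursors that mature in an acid compartment. In the lung, alveolar type 2 cells are known for making napsin A and the gastric protease precursor encoded by Pgc, and napsin A takes part with the cysteine protease cathepsin H in trimming surfactant protein B. Chymosin, the product of Cym, is the milk-clotting enzyme of the stomach of young mammals, and cathepsin D is a digestive enzyme of lysosomes in nearly all cells.

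The RefSeq promoter table held 3 of the 7 members, and these are shown because they are a gene that was low in both mutants (Cym), a gene that differed between the mutants (Pgc) and a gene that rose in both (Ctsd). Each window runs from 250 bases before to 50 bases after the annotated start in build GRCm38.p6 and is written along the gene's own strand. Capitals mark the matches found for 6 short motifs on either strand, and positions are counted from the start.
Cym, chr3:107221683-107221982, minus strand: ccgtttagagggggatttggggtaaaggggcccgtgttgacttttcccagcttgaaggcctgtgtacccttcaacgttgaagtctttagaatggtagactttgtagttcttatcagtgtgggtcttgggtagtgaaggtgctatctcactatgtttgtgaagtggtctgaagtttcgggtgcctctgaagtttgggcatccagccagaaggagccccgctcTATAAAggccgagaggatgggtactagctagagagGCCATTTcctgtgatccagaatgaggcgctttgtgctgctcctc
Pgc, chr17:47726592-47726891, plus strand: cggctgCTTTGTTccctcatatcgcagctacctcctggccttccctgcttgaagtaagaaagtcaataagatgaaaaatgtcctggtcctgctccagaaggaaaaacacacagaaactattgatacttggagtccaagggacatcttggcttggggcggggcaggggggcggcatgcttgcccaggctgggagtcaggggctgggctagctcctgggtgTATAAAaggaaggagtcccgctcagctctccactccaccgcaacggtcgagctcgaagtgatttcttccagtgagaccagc
Ctsd, chr7:142387778-142388077, minus strand: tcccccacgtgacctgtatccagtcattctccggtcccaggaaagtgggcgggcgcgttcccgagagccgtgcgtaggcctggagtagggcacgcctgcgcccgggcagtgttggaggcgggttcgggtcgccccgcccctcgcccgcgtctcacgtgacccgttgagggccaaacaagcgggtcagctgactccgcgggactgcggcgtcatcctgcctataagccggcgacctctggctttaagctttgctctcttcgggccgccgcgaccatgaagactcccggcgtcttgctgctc
The motifs searched were TGTTTAC for Foxa factors, CTCAAG for Nkx2-1, CTTTGTT for Sox factors, AGATAA for Gata factors, ANATGGC for Yy1 and TATAAA for the TATA box. Of 32851 promoters of this length, 3.65% held the Foxa motif, 15.9% the Nkx2-1 motif, 5.85% the Sox motif, 11.2% the Gata motif, 15.1% the Yy1 motif and 13.6% the TATA box. The Cym window held TATAAA from position -29 and, on the opposite strand, the Yy1 motif from position 7, where it reads GCCATTT. The Pgc window held TATAAA from position -31 and the Sox motif from position -244. The Ctsd window held none of the 6. These matches are letters in a window and say nothing of whether a factor binds there, and the matches do not overlap one another.

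The deposited values are log2 signals that the authors had normalised, with array medians from 5.99 to 6.08 and correlations between pairs of arrays of 0.978 to 0.991. Genotypes were compared with limma over all 22180 genes, and a gene was called where its Benjamini-Hochberg adjusted p was under 0.05. Yy1 itself went from 9.03 in controls to 8.84 in Yy1 mutants, a difference of -0.19 that was not called (limma adjusted p = 0.125). Dicer1 fell by 0.61 in Dicer mutants (adjusted p = 0.00127). Whether these 2 probe sets read the deleted exons is not known from the files. The tissue was checked with Nkx2-1, the lung lineage transcription factor, which had a mean of 9.29 in controls, 8.36 with Yy1 floxed and 8.85 with Dicer floxed. Nkx2-1 was itself called lower in Yy1 mutants (limma adjusted p = 0.000302) and in Dicer mutants (adjusted p = 0.0344, lost in 7 of 20 alternative fits). The Y-linked gene Eif2s3y was raised on 3 arrays, Yy1 mutants 2 and 3 and Dicer mutant 4, at 5.92 to 7.99 against 3.73 to 4.48 on the others, so each comparison was also run without these 3 Eif2s3y-high arrays, which leaves 2 Yy1 and 3 Dicer mutants. Of all genes, 2.77% were called higher and 3.84% lower in Yy1 mutants, and 4.78% and 3.97% in Dicer mutants. Marker lists for 8 cell types are set beside these shares. Of 16 macrophage and leukocyte genes, 10 were called higher and none lower in Yy1 mutants, and 13 higher and none lower in Dicer mutants. Of 18 epithelial genes, 8 were called lower and none higher in Yy1 mutants, and 9 lower and 2 higher in Dicer mutants. Smooth muscle genes were lower (7 of 10 and 8 of 10) and mesenchymal genes higher (6 of 12 and 7 of 12), endothelial genes were higher for 1 and 8 of 10, and erythroid genes for 0 and 1 of 7. Of 8 liver genes 0 and 1 were called higher, and of 6 mesothelial genes 1 rose and 1 fell in Yy1 mutants and 2 rose and 1 fell in Dicer mutants. The liver and erythroid counts, and the endothelial count in Yy1 mutants, were at most 1 gene, which is near the shares of all genes. The part of these other cell types in the results that follow was not tested, except where a value is given beside a gene.

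Cym was the member with the widest gap between genotypes. In the order of specimens 1 to 4, its log2 signal in controls was 10.66, 11.05, 10.30 and 10.51. In Yy1 mutants it was 7.58, 7.76, 7.60 and 8.52, and in Dicer mutants it was 7.33, 7.05, 7.17 and 7.07. Every mutant array lay below every control array, Yy1 mutant 4 was the highest of the mutant arrays, and the Dicer mutant arrays all lay below the Yy1 mutant arrays. The means were 10.63 ± 0.32 (SD, n = 4) in the control group, 7.87 ± 0.44 in Yy1 mutants and 7.16 ± 0.13 in Dicer mutants. The Yy1 mutants were 6.79-fold below the controls, a log2 difference of -2.76 with a 95% interval of -3.18 to -2.34. The Dicer mutants were 11.1-fold below, a difference of -3.47 with an interval of -3.89 to -3.06. Without the 3 Eif2s3y-high arrays the differences were -2.58 and -3.44. Between the mutants Cym differed by -0.71 (95% interval -1.13 to -0.29), which missed the threshold (limma adjusted p = 0.0532) although the arrays did not overlap.

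The order of Cym levels was therefore control, Yy1 mutant, Dicer mutant, and the lower pair of neighbours was not separated by the test. That last difference passed after quantile normalisation (adjusted p = 0.0454), after removal of the dimmest 30% of genes (0.0288) and without control 2 (0.036). A stomach list of 22 measured genes holds acid pump subunits, gastric mucins, trefoil factors and gastrokines. In Yy1 mutants 0 of the 22 were called by limma, against 6.61% of all genes, with 3 at an unadjusted p under 0.05. In Dicer mutants 1 was called, against 8.75% of all genes. It was the surface mucin gene Muc5ac, which fell by 0.50 (adjusted p = 0.00862). For a list of 22 genes these counts are near the shares of all genes. The mean log2 signal of the 22 genes was 5.67 to 5.89 over control arrays, 5.69 to 5.81 over Yy1 mutants and 5.53 to 5.75 over Dicer mutants, so these ranges overlapped. All these means lay below the array medians of 5.99 to 6.08. Whether genes this dim could fall as far as Cym was not tested. Pga5, a pepsinogen gene of the same family outside the 7, differed by -0.16 (adjusted p = 0.473) in Yy1 mutants and by -0.24 (adjusted p = 0.221) in Dicer mutants.

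**Figure D1:**
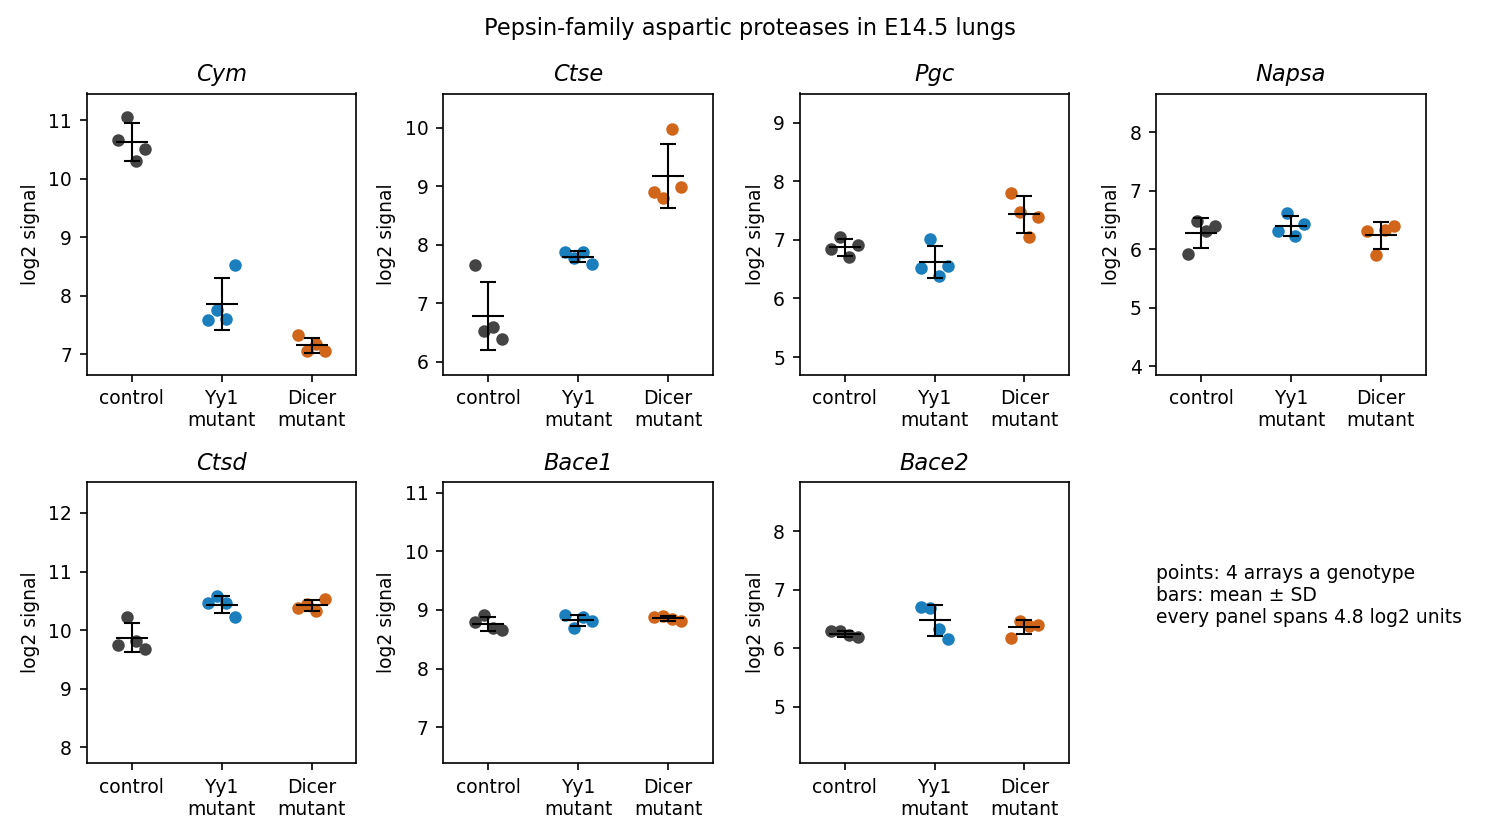
Log2 signal of the 7 members on each array (vertical axis), by genotype (horizontal axis), with 4 points a genotype, the mean as a bar and the SD as whiskers, and panels of equal height in log2 units. Cym dropped from 10.63 to 7.87 and 7.16, Ctse climbed from 6.79 to 7.80 and 9.17, and Bace1 stayed between 8.65 and 8.92 on all arrays.

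Ctse, which encodes the endosomal cathepsin E of gastric epithelium, leukocytes and red cell precursors, moved the other way from Cym. Its log2 signal in controls was 7.65, 6.53, 6.60 and 6.39. In Yy1 mutants it was 7.87, 7.77, 7.88 and 7.67, and in Dicer mutants it was 8.90, 8.80, 9.98 and 8.98. Control 1 lay far above the other controls and only just below the lowest Yy1 mutant, Dicer mutant 3 lay far above the other Dicer mutants, and no group overlapped another. The means were 6.79 ± 0.58 (SD, n = 4), 7.80 ± 0.10 and 9.17 ± 0.55. In Dicer mutants Ctse rose 5.19-fold, a log2 difference of 2.38 with a 95% interval of 1.79 to 2.96 (limma adjusted p = 0.000125). In Yy1 mutants it rose 2.01-fold, a difference of 1.01 with an interval of 0.42 to 1.60 (adjusted p = 0.0429), and the Dicer mutants were 2.58-fold above the Yy1 mutants (1.37, interval 0.78 to 1.96, adjusted p = 0.00942).

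The call in Yy1 mutants lay near the threshold (limma adjusted p = 0.0429) and the call in Dicer mutants did not. Over fits that left out 1 array the difference in Yy1 mutants stayed between 0.87 and 1.29. The Yy1 call was lost in 10 of 20 alternatives, among them the omission of control 2, 3 or 4 (adjusted p 0.103, 0.106 and 0.106), of any 1 Yy1 mutant (0.0757 to 0.102), of Dicer mutant 4 (0.0559) and of the 3 Eif2s3y-high arrays (0.245). Without control 1 the difference was 1.29 and the adjusted p 0.00445. The rise in Dicer mutants was called in all 20, at 2.66 without control 1, 2.10 without Dicer mutant 3 and 2.44 without the 3 arrays (adjusted p = 0.00277). The difference between the mutants was 1.46 without the 3 arrays and was then not called (adjusted p = 0.114), and 1.10 without Dicer mutant 3 (adjusted p = 0.019).

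Ctsd, the lysosomal cathepsin D gene, rose in both mutants although it was grouped with the housekeeping members. Its log2 signal in controls was 9.75, 10.23, 9.82 and 9.68. In Yy1 mutants it was 10.46, 10.58, 10.46 and 10.23, and in Dicer mutants it was 10.38, 10.45, 10.32 and 10.54. Control 2 was the highest control and lay level with Yy1 mutant 4, the lowest Yy1 mutant, while all other mutant arrays lay clearly above all controls. The means were 9.87 ± 0.25 (SD, n = 4), 10.43 ± 0.15 and 10.42 ± 0.09. Ctsd rose 1.48-fold in Yy1 mutants (0.56, 95% interval 0.32 to 0.81, limma adjusted p = 0.00765) and 1.47-fold in Dicer mutants (0.55, interval 0.31 to 0.80, adjusted p = 0.00741). Between the mutants the difference was -0.01 (adjusted p = 0.972). Both calls were lost only without the 3 Eif2s3y-high arrays, where the differences were 0.48 (adjusted p = 0.132) and 0.51 (adjusted p = 0.0502).

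Macrophages hold much cathepsin D, and the mean of their markers was higher in both mutants than in controls, as both cathepsin genes were. Between the mutants the 3 did not run in parallel. Ctsd differed by -0.01 and Ctse by 1.37, and 2 of the 16 markers were called higher in Dicer mutants, against 3.39% of all genes. Among the controls, control 2 had the highest Ctsd, 10.23, and the lowest marker mean, 6.76. The mean log2 signal of the 16 macrophage and leukocyte genes was 6.76 to 6.88 over control arrays, 7.08 to 7.32 over Yy1 mutants and 7.28 to 7.46 over Dicer mutants. Csf1r, the receptor of the macrophage growth factor, went from 7.49 in controls to 7.91 and 8.11, and Cd68 went from 8.12 to 8.56 and 8.87. Without the 3 Eif2s3y-high arrays, 3 of 16 were called higher in Yy1 mutants and 11 of 16 in Dicer mutants, against 245 and 578 of all 22180 genes. Log2 signals have no true zero, so no marker can be called absent, and the part of these cells in the rise of Ctsd and Ctse was not tested. Red cell precursors also make cathepsin E, and their part was not tested either. The 7 erythroid genes had mean log2 signals of 7.07 to 7.21, 6.98 to 7.31 and 7.21 to 7.62. In Dicer mutants 1 of the 7 was called higher, the red cell anion exchanger Slc4a1, by 1.02, where 4.78% of all genes were called higher. The others, none called, differed by 0.25 (Hba-x), -0.17 (Hbb-bh1), -0.13 (Hbb-y), 0.24 (Epb42), 0.003 (Klf1) and 0.52 (Rhag).

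**Figure D2:**
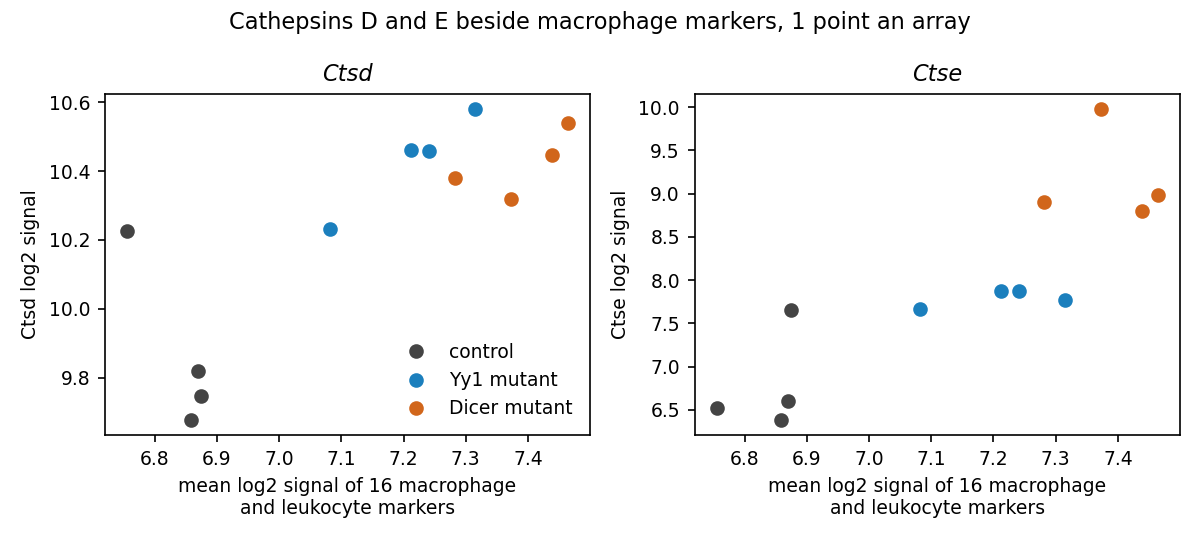
Log2 signal of Ctsd (left) and Ctse (right) on the vertical axis against the mean log2 signal of 16 macrophage and leukocyte markers on the horizontal axis, 1 point an array, coloured by genotype. The controls lie at 6.76 to 6.88 on the horizontal axis and the mutants at 7.08 to 7.46, and control 2 has the highest Ctsd and the lowest marker mean of the controls.

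Pgc, the gene of the pepsin precursor progastricsin, separated the mutants from each other. Its log2 signal in controls was 6.84, 7.05, 6.70 and 6.91. In Yy1 mutants it was 6.53, 7.02, 6.39 and 6.55, and in Dicer mutants it was 7.81, 7.48, 7.06 and 7.40. Yy1 mutant 2 lay within the control range and the other Yy1 mutants below it, and the lowest Dicer mutant lay just above the highest control. The means were 6.88 ± 0.14 (SD, n = 4), 6.62 ± 0.27 and 7.43 ± 0.31. Pgc was 1.76-fold higher in Dicer than in Yy1 mutants (0.81, 95% interval 0.48 to 1.15, limma adjusted p = 0.00678), a call that held in all 20 alternatives. Against control it rose 1.47-fold in Dicer mutants (0.56, interval 0.23 to 0.89, adjusted p = 0.0386), and this call was lost in 9 of 20 alternatives, 8 of which left out 1 array (adjusted p 0.0505 to 0.108) and 1 the 3 Eif2s3y-high arrays (0.0682). In Yy1 mutants the difference from control was -0.25 (interval -0.59 to 0.08, adjusted p = 0.418).

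Napsa, the napsin A gene, showed no called difference. Its log2 signal in controls was 5.92, 6.49, 6.31 and 6.39. In Yy1 mutants it was 6.31, 6.61, 6.23 and 6.43, and in Dicer mutants it was 6.31, 5.90, 6.33 and 6.40. All 3 groups overlapped, with control 1 and Dicer mutant 2 the lowest arrays. The means were 6.28 ± 0.25 (SD, n = 4), 6.40 ± 0.17 and 6.24 ± 0.23. The difference was 0.12 in Yy1 mutants (95% interval -0.17 to 0.41, limma adjusted p = 0.716) and -0.04 in Dicer mutants (interval -0.33 to 0.25, adjusted p = 0.899). The table holds no detection calls, so whether these signals exceed background is unknown.

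The β-secretase genes showed no called difference. Bace1, which encodes the enzyme that makes the first cut in the amyloid precursor protein, had log2 signals of 8.80, 8.92, 8.69 and 8.65 in controls. It had 8.91, 8.70, 8.87 and 8.80 in Yy1 mutants and 8.88, 8.89, 8.84 and 8.80 in Dicer mutants. The groups overlapped, and its differences from control were 0.06 (95% interval -0.10 to 0.22, limma adjusted p = 0.742) and 0.09 (interval -0.07 to 0.25, adjusted p = 0.527). A further probe set for Bace1, with a mean of 7.96 against 8.81 for the one used, gave differences of 0.09 and 0.17. Bace2, its close relative, had log2 signals of 6.29, 6.29, 6.22 and 6.18 in controls. It had 6.71, 6.69, 6.33 and 6.17 in Yy1 mutants and 6.18, 6.46, 6.39 and 6.40 in the Dicer group. Yy1 mutants 1 and 2 lay above the rest, and the differences were 0.23 (interval -0.01 to 0.47, adjusted p = 0.292) and 0.11 (interval -0.13 to 0.36, adjusted p = 0.617). The intervals of both genes end below 0.55, the estimate for Ctsd in Dicer mutants, whose own interval ran from 0.31 to 0.80. Those of Bace2 overlap the Ctsd interval, and the genes were not tested against each other.

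Leaving Cym aside because its fall was known beforehand, 2 of the 6 other members were called in Yy1 mutants against a background of 6.61% of all genes. In Dicer mutants 3 of 6 were called against 8.75%. By direction, Ctse and Ctsd were higher in Yy1 mutants, where 2.77% of all genes were called higher and 3.84% lower. Ctse, Ctsd and Pgc were higher in Dicer mutants, where 4.78% were higher and 3.97% lower. Between the mutants 2 of all 7 members were called against 4.96%, Ctse and Pgc, both higher in Dicer mutants, where 3.39% of all genes were higher and 1.57% lower. The arrays did not overlap for 2 of the 6 in Yy1 mutants and 3 of the 6 in Dicer mutants, against 12.6% and 16.0% of all genes, and for 3 of 7 between the mutants, against 13.8%. The median difference over the 6 was 0.17 in Yy1 mutants and 0.33 in Dicer mutants, beside 0.00161 and -0.03 over all genes, and over all 7 between the mutants it was -0.01, beside -0.03. Since the family was put together with results known, these counts support nothing beyond the values of each gene. Without the 3 Eif2s3y-high arrays, 0 of the 6 were called in Yy1 mutants and 1 of the 6 in Dicer mutants, and 1 of 7 between the mutants. The calls over all 22180 genes also dropped in these fits, to 606, 976 and 435. Of the 3 restricted paralogs other than Cym, Ctse was the 1 called in Yy1 mutants and Ctse and Pgc were the 2 called in Dicer mutants, and among the housekeeping members Ctsd was the 1 called in each.

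**Figure D3:**
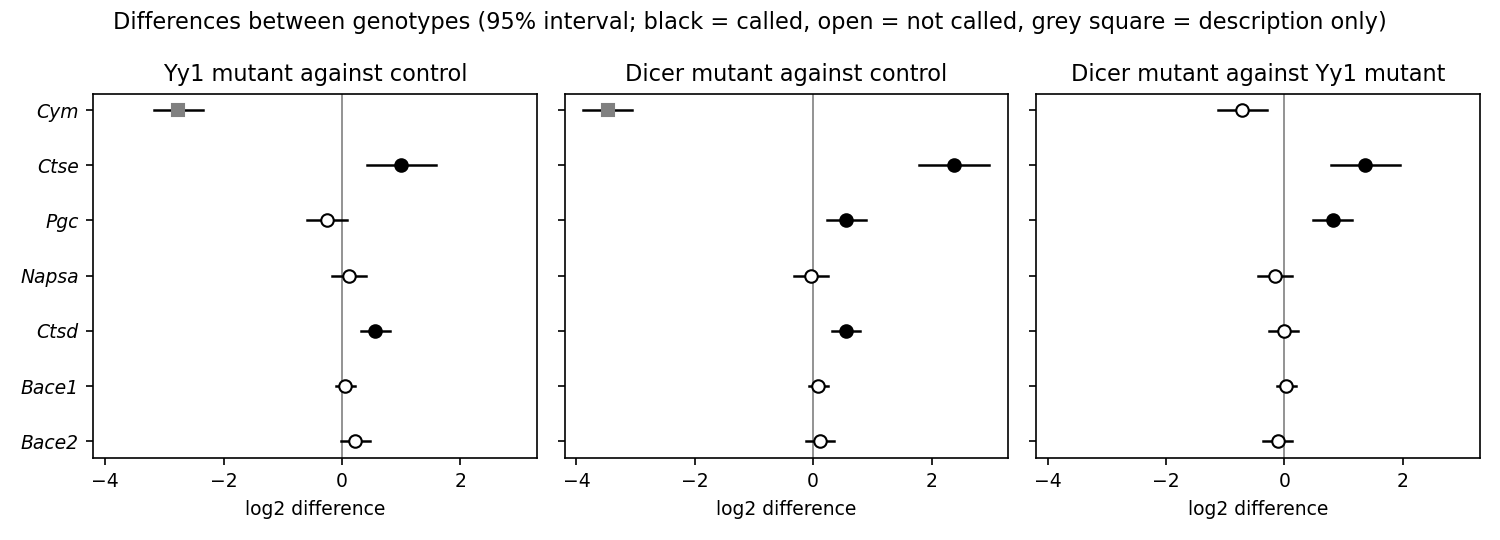
Log2 difference of each member between genotypes (horizontal axis) with its 95% interval, one panel a comparison, with black circles called at an adjusted p under 0.05, open circles not called and grey squares for Cym against control, which is a description. Cym lies at -2.76 and -3.47 against control, Ctse at 1.01 and 2.38, and Napsa, Bace1 and Bace2 have intervals that include 0 in all panels.

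Cathepsin H and surfactant protein B, with which napsin A works in surfactant maturation, were higher in both mutants at the RNA level. Ctsh, the cathepsin H gene, had log2 signals of 7.90, 8.59, 7.90 and 7.79 in controls. It had 8.64, 9.36, 9.01 and 8.36 in Yy1 mutants and 9.83, 9.70, 9.72 and 9.97 in Dicer mutants. All Dicer mutants lay above all other arrays, and control 2 lay within the Yy1 mutant range. Ctsh rose 3.38-fold in Dicer mutants (1.76, limma adjusted p = 0.000121) and by 0.80 in Yy1 mutants (adjusted p = 0.0303). The Yy1 call was lost in 8 of 20 alternatives, and without the 3 Eif2s3y-high arrays the difference was 0.45 (adjusted p = 0.307). Its substrate gene Sftpb, surfactant protein B, went from 9.27 ± 0.38 (SD, n = 4) to 10.22 ± 0.47 and 11.51 ± 0.15. Sftpb rose 4.72-fold in Dicer mutants (2.24, adjusted p = 2.72e-05), and by 0.94 in Yy1 mutants (adjusted p = 0.0171), lost in 3 of 20, with a difference of 0.64 without the 3 Eif2s3y-high arrays (adjusted p = 0.169). Sftpc, surfactant protein C, which is cut by some of the same enzymes, fell by 2.38 in Yy1 mutants (adjusted p = 2.73e-05) and by 1.14 in Dicer mutants (adjusted p = 0.00552). Napsa, whose product acts on the same precursor as cathepsin H, stayed at the levels given.

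Over the list of 14 surfactant genes, 6 were called higher and 1 lower in Yy1 mutants and 10 higher and 1 lower in Dicer mutants, with medians of 0.03 and 1.04. Of all genes, 2.77% were called higher and 3.84% lower in Yy1 mutants, and 4.78% and 3.97% in Dicer mutants. Lamp3, a membrane protein of lamellar bodies, rose by 1.41 in Yy1 mutants (limma adjusted p = 0.000273) and by 1.44 in Dicer mutants (adjusted p = 0.00021). Abca3, the lamellar body lipid transporter, rose by 1.11 in Dicer mutants (adjusted p = 4.15e-06) and had a difference of -0.18 in Yy1 mutants (adjusted p = 0.255). Between the mutants 8 of the 14 were higher in Dicer mutants and 0 lower, against 3.39% and 1.57% of all genes. The smallest adjusted p was that of Abca3 (a difference of 1.29, limma adjusted p = 1.08e-06). Without the 3 Eif2s3y-high arrays, 1 gene was higher and 1 lower in Yy1 mutants, 9 higher and 1 lower in Dicer mutants, and 6 higher between the mutants. Of all 22180 genes, 245 were then higher and 361 lower in Yy1 mutants, 578 and 398 in Dicer mutants, and 351 higher between the mutants. Without control 1, 4 genes were called in Yy1 mutants. Ctsh, Sftpb and Sftpc were named here for their link to napsin A, after their values were seen. Between the mutants they were called higher in Dicer mutants, by 0.96, 1.30 and 1.24 (limma adjusted p = 0.0128, 0.00265 and 0.00441). Lyz2 is also a macrophage gene, and Ctsh and Pga5 are also in other lists.

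**Figure D4:**
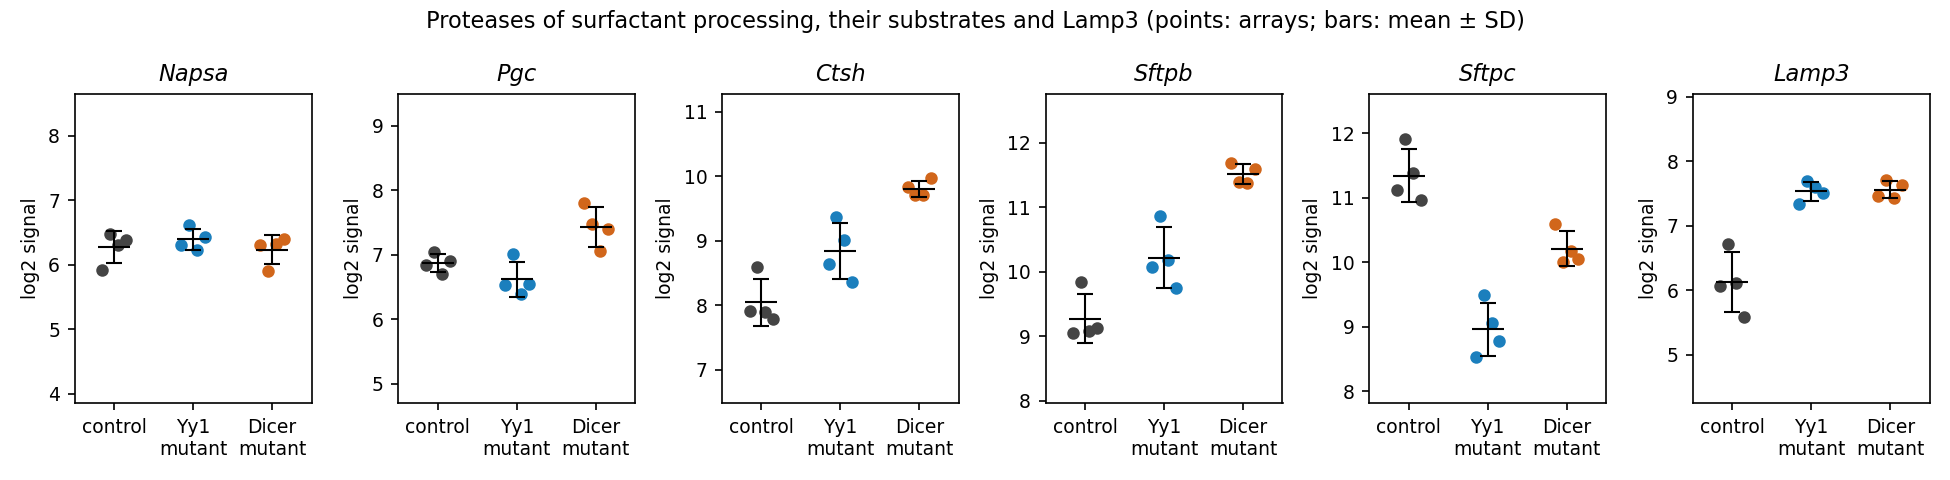
Log2 signal (vertical axis) of Napsa and Pgc, the protease partner Ctsh, the substrates Sftpb and Sftpc, and Lamp3 by genotype (horizontal axis), with 4 points a genotype, the mean as a bar and the SD as whiskers. Sftpb climbed from 9.27 to 10.22 and 11.51 and Ctsh to 9.81 in Dicer mutants, while the Napsa groups overlap.

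The rise of Ctsd had company among lysosomal genes of other classes. The list of 23 measured genes holds cysteine cathepsins, glycosidases and lysosomal membrane proteins. In Yy1 mutants 7 were called higher and 0 lower, with a median of 0.17, against 2.77% and 3.84% of all genes. In Dicer mutants 12 were higher and 0 lower, with a median of 0.28, against 4.78% and 3.97% of all genes. Between the mutants 3 were higher, against 3.39% of all genes. The smallest p-values in Yy1 mutants belonged to Hexa, a β-hexosaminidase subunit, at 0.43 (limma adjusted p = 0.00258), and to Ctsf, Ctsb and Lamp2, at 0.50, 0.35 and 0.27. In Dicer mutants they belonged to Ctsh, to the leukocyte cathepsin gene Ctss at 0.64 (adjusted p = 0.000608), to Ctsb at 0.51 and to Igf2r, a sorting receptor of lysosomal enzymes, at 0.37. Without the 3 Eif2s3y-high arrays the counts were 0, 7 and 1, so none of the calls in Yy1 mutants passed with 2 Yy1 arrays left. Of all 22180 genes, 245, 578 and 351 were called higher in the same fits. The differences in Yy1 mutants were then 0.41 for Hexa, 0.37 for Ctsf, 0.28 for Ctsb and 0.29 for Lamp2. The Dicer count was also 7 without control 3, control 4, Dicer mutant 2 or Dicer mutant 4. Ctss and Ctsh stand in the macrophage and surfactant lists as well.

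Other aspartic proteases, beyond the 7, showed 0 called genes of 8 measured in each comparison by limma. Of all genes, 6.61% were called in Yy1 mutants, 8.75% in Dicer mutants and 4.96% between the mutants. For a list of 8 genes, 0 is near these shares. At an unadjusted p under 0.05 there were 0 in Yy1 mutants, 3 in Dicer mutants and 2 between the mutants. The list holds Pga5, the skin protease Asprv1, presenilin 2 and the signal peptide peptidase-like genes, with medians of -0.06, 0.01 and -0.04. The partners and substrates of the secretases include γ-secretase subunits, Adam proteases and the amyloid precursor family. In Yy1 mutants 0 of 20 were called, against 6.61% of all genes, with 4 at an unadjusted p under 0.05. In Dicer mutants 2 of 20 were called, both higher, which is near the 8.75% of all genes. They were the α-secretase gene Adam10, by 0.35 (limma adjusted p = 0.0159), and Cltrn, the collectrin gene, by 0.95 (adjusted p = 0.0178). Neither call held without the 3 Eif2s3y-high arrays (adjusted p 0.0624 and 0.098), and the call of Cltrn was lost in 4 of the 19 alternatives that kept the gene. Cltrn was dim, with means of 4.07 in controls and 5.01 ± 0.61 (SD) in Dicer mutants, below the array medians. It dropped out when the dimmest 30% of genes were removed. Between the mutants 3 were higher and 1 lower in Dicer mutants, against 3.39% and 1.57% of all genes. Without the 3 arrays 0 of the list were called, against 435 of all 22180 genes.

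**Figure D5:**
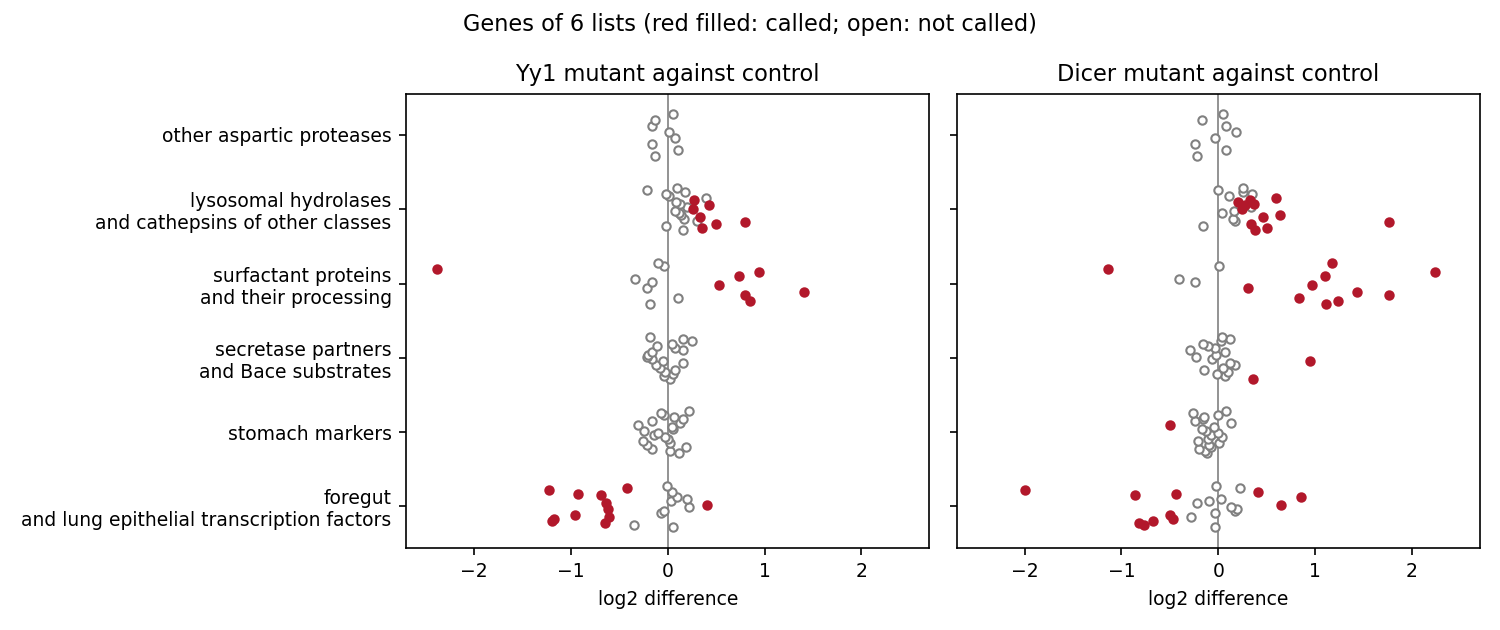
Log2 difference from control (horizontal axis) of each measured gene of 6 lists (vertical axis), Yy1 mutants left and Dicer mutants right, with called genes filled. All called lysosomal genes lie above 0, the surfactant genes spread from -2.38 to 2.24, and the other aspartic proteases lie between -0.24 and 0.18 with 0 called.

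Transcription factors of the foregut and lung epithelium were called lower more often than higher in each mutant. Of 22 measured, 11 were called lower and 1 higher in Yy1 mutants, and 8 lower and 3 higher in Dicer mutants, with medians of -0.39 and -0.06. Of all genes, 3.84% were called lower and 2.77% higher in Yy1 mutants, and 3.97% and 4.78% in Dicer mutants. Sox2, the proximal airway factor, fell 2.34-fold in Yy1 mutants (limma adjusted p = 0.000291) and 3.99-fold in Dicer mutants (adjusted p = 6.82e-06). Foxa2, which opens chromatin in endoderm, fell by 0.96 (adjusted p = 2.41e-05) and by 0.50 (adjusted p = 0.00312). Id2, a factor of distal tips, rose by 0.85 in Dicer mutants (adjusted p = 2.11e-05) and by 0.75 against Yy1 mutants, and Gata6 rose by 0.64 in Dicer mutants. Between the mutants 9 were higher and 2 lower in Dicer mutants, against 3.39% and 1.57% of all genes. Without the 3 Eif2s3y-high arrays 8 were lower and 1 higher in Yy1 mutants, and 7 lower and 3 higher in Dicer mutants. Of all 22180 genes, 361 were then lower and 245 higher in Yy1 mutants, and 398 and 578 in Dicer mutants.

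The genes closest to each paralog over the 12 arrays are given as a description with no test, since the arrays share genotypes and a correlation can come from the genotype means alone. For Cym they were A2m at a Pearson r of 0.982, Elapor1 at 0.974 and Scnn1b, a sodium channel subunit, at 0.967. Within genotypes, after each genotype's mean was removed, the same values were 0.531, 0.767 and 0.245. For Ctse they were Creg1, a secreted glycoprotein gene of endosomes and lysosomes, at 0.954, Fam3c at 0.947 and Serinc1 at 0.945, with 0.676, 0.819 and 0.714 within genotypes. For Pgc they were the chloride transporter Slc26a9 at 0.935, Sh3bgrl2 at 0.927 and Zfpm1 at 0.921, with 0.796, 0.813 and 0.739 within genotypes. Slc26a9 differed from control by -0.53 in Yy1 mutants and 0.86 in Dicer mutants, beside -0.25 and 0.56 for Pgc. For Napsa they were Frmpd2 at 0.847, Slc35g2 at 0.845 and Ldlrad1 at 0.844, with 0.839, 0.825 and 0.855 within genotypes.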

How the data were processed

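Whole-lung RNA of 12 mouse specimens (4 for each of 3 genotypes) was measured on single-channel arrays with a biotin label, per the labels. The authors deposited normalised log2 values for 41345 probe sets. How the arrays were summarised and normalised, with which software and on which array design, is not given in the sources used here. Base 2 was inferred from the range, 1.10 to 13.6. The platform annotation gave 23521 probe sets 1 symbol, 1814 several and 16010 none, and only the first were used. Where a gene had several probe sets (1082 genes) the one with the highest mean was kept, which left 22180 genes. Of the single-symbol probe sets, 23328 matched a RefSeq gene by Entrez identifier and 0 symbols changed.

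One linear model over the 3 genotypes was fitted with limma 3.58.1 in R 4.3.3 (9 residual degrees of freedom, empirical Bayes moderation, two-sided), and p-values were adjusted by Benjamini-Hochberg over all genes of a comparison. A gene was called at an adjusted p under 0.05. The mutants share their controls. Precision is limited by 4 arrays a genotype. Per the labels, specimens carry replicate numbers. These were not used to pair them because deviations of same-numbered specimens correlated only weakly, at -0.16 to 0.19. The fit was tested on simulated data with known shifts. Tables and plots were made with Python 3.11.15, pandas 2.3.3, numpy 2.4.6 and matplotlib 3.10.9. Promoters came from a RefSeq table on GRCm38.p6, which held 3 of the 7 members.

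The members and lists were chosen with earlier results of these data known. All members were named, with up to 4 called and up to 2 uncalled genes of each list by smallest p, and the 3 genes most correlated with each paralog, leaving out predicted, Riken and sex-linked genes. The 6 lists were other aspartic proteases, lysosomal genes, surfactant genes, secretase partners and substrates, stomach genes and foregut transcription factors. Alternatives changed the scaling (quantile normalisation or equal medians), left out the dimmest 30% of genes, averaged a gene's probe sets, used limma's trend and robust options, fitted each pair of groups alone, added a replicate block, or left out 1 array or the 3 Eif2s3y-high arrays. Running them on the lists and other named genes was added after seeing the data.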

Additional observations from a re-analysis of the deposited data

Results flagged for a closer look

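Ctse in control 1, at a log2 signal of 7.651, stood above the other 3 controls, which lay between 6.39 and 6.60. Ctse in Dicer mutant 3, at 9.979, stood above the other 3 Dicer mutants, which lay between 8.80 and 8.98. In both cases the gap to the nearest array, divided by the range of the group, was over the 95% critical value of Dixon's test for 4 arrays. Across the 7 members and 3 genotypes 21 groups were examined in this way, and chance marks about 1 in 20 of them.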

How the results depend on the processing

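Of the member differences, those of Cym included, under 20 alternatives each, 385 kept their direction and their side of the threshold, 22 lost the call, 3 gained it and 10 changed sign. All sign changes were in differences close to 0. Napsa in Yy1 mutants was -0.000427 without control 1, and in Dicer mutants it was 0.0294 without control 2 and 0.0712 without Dicer mutant 2. Ctsd between the mutants was 0.00124 with equal array medians, 0.0369 without the 3 Eif2s3y-high arrays, and between -0.0790 and 0.0372 over fits that left out 1 array. Bace1 between the mutants was -0.00131 after quantile normalisation and between -0.0108 and 0.0606 over fits that left out 1 array. Over such fits the Napsa differences ran from -0.000427 to 0.19 and from -0.16 to 0.0712. Genes called numbered 606, 976 and 435 without the 3 arrays (Yy1 against control, Dicer against control, Dicer against Yy1), and 1020 to 1455, 1275 to 1991 and 726 to 1180 over fits that left out 1 array. Members past the threshold, with Cym counted in, numbered 1, 2 and 1 without the 3 arrays, and 2 to 3, 3 to 4 and 2 to 3 over fits that left out 1 array. That omission also leaves 2 Yy1 and 3 Dicer mutant arrays, and the cause of the lower counts was otherwise not tested. The replicate numbers were not used as pairs, since deviations of same-numbered specimens correlated only weakly, at 0.06 to 0.12, -0.02 to 0.19 and -0.16 to -0.03. With 4 pairs a comparison, these values cannot show that the numbers carry no pairing. With the replicate number as a block, 1301, 1848 and 997 genes and 3, 4 and 2 members were called. Scaling moved the median of all genes by under 0.03. The table gives no background signal, so what dim signals limit is unknown.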

Other observations

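The gap of 1.05 between control 1 and the next control in Ctse ranked 4 among 22180 genes for a control 1 value above all other controls. It came after Olfr201 and Olfr463, odorant receptor genes, and Stfa2l1, a stefin gene, whose control 1 signals were 4.90, 4.18 and 5.39. These genes were looked up after the values of Ctse were seen.

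Control 2 was the highest control for several genes of the surfactant and lysosomal groups. Ctsd was at 10.23 there against 9.68 to 9.82 in the other controls, and Ctsh at 8.59 against 7.79 to 7.90. Sftpb was at 9.84 against 9.05 to 9.13, Lamp3 at 6.72 against 5.59 to 6.12, and Sftpc at 11.91 against 10.97 to 11.39. The mean of the macrophage and leukocyte markers was lowest in the same array, at 6.76. These values were set side by side after they were seen, and no cause was tested.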
